A study of Rattus norvegicus with 12 samples.

Results

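The genes described here encode the general splicing factors of cultured rat cerebellar granule neurons. They were taken from the array's gene table by symbol: every gene with a single symbol beginning with Srsf, Hnrnp, Sf3a, Sf3b, U2af or Snrp, with all of its probe sets. This gave 50 genes and 81 probe sets, of 14217 genes with a single symbol and 31042 probe sets. The families were 11 SR protein genes (the pseudogene Srsf7-ps4 counted among them), 17 hnRNP genes, 3 SF3A genes, 6 SF3B genes, 3 U2AF genes and 10 snRNP protein genes. The study measured total RNA on 12 rat arrays, with 3 arrays (letters A, B and C) in each of 4 groups: GW5074 at 6 h, low potassium at 6 h, GW5074 at 3 h and low potassium at 3 h. GW5074 is a small-molecule inhibitor of RAF kinases, and lowering potassium is a common way to start the death of granule neurons in culture. All 4 groups share the rat, the cerebellum and the cultured neurons. The labels give neither a dose nor an age of the animals, and whether GW5074 was given in low or in raised potassium is not stated. No group is labelled as untreated or as kept in raised potassium, so a change between 3 h and 6 h and the effect of time in culture cannot be told apart.

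Pre-mRNA splicing removes introns in the spliceosome, which is built from small nuclear ribonucleoproteins (snRNPs) and many other proteins. The Sm proteins form a ring around each snRNA, U2AF binds the polypyrimidine tract and the AG at the end of the intron, and SF3A and SF3B are parts of the U2 snRNP that hold the branch site. SR proteins bind exonic enhancers and mostly favour exon inclusion, whereas many hnRNP proteins bind silencers or intronic sites and often favour skipping. In neurons these general factors act beside tissue-restricted regulators such as the RBFOX and NOVA proteins.

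Each probe set has 1 deposited intensity (linear scale) on each array, and all 12 arrays had a trimmed mean between 150 and 150.1. Precision is limited by how few arrays each group holds. The labels do not say whether the letters are separate cultures, so the p-values measure a spread between arrays that may be technical. The title of GW5074 6 h array A ends in a suffix unlike that of the other 11, with no meaning given, and that array was kept in its group. Over the 18549 tested probe sets that belong to no splicing factor member, the arrays were placed on a scale where the mean of the 3 h arrays is 0 and that of the 6 h arrays is 1. Arrays A and C at 6 h lay at 1.12 and 1.19 with GW5074 and at 1.08 and 1.18 in low potassium. Both 6 h arrays of letter B lay lower, at 0.683 with GW5074 and 0.741 in low potassium, and the 3 h arrays lay between -0.0778 and 0.106. The log2 difference between the 3-prime and 5-prime actin probe sets, a sign of RNA quality, was 1.06 to 1.16 with GW5074 and 0.971 to 1.02 in low potassium at 6 h, and 0.866 to 1.36 with GW5074 and 0.844 to 1.06 in low potassium at 3 h.

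Markers of the labelled cell type were present: 19 of 20 granule neuron markers were on the array and all 19 passed the filter on dim probe sets, among them Neurod1, Pax6, Gabra6 and Slc17a7. Of the other cell types, 10 of 12 astrocyte markers, 7 of 11 oligodendrocyte, 7 of 12 microglial and 4 of 12 endothelial and fibroblast markers passed. The endothelial gene Pecam1 (mean intensity 7.22) and the leukocyte gene Ptprc (20.8) did not reach the filter, which lay at an intensity of 28. Other markers of these cell types did, among them the microglial gene Cd68 (123) and the smooth muscle gene Acta2 (97.5). The oligodendrocyte gene Mbp (1860) and the astrocyte gene Gfap (1120) were as bright as some granule neuron markers, such as Slc17a7 (1900) and Gabra6 (697). No probe set had a value of 0.

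Promoters are printed for 3 members on which the results over time turn, to show the start of the gene that fell most (Snrpa1), of the Sm core gene that fell most (Snrpb) and of the gene that rose in both treatments (Hnrnph1). They are RefSeq windows of build GRCr8, from 250 bases before to 50 bases after the gene's start, written 5′ to 3′ on the gene's strand. Snrpa1 is at chr1:129051800-129052099 (plus strand), Snrpb at chr3:137832430-137832729 (minus strand) and Hnrnph1 at chr10:35194383-35194682 (plus strand). Capitals mark matches to any of 5 motifs searched on both strands: the CCAAT box, the ETS motif, the E box, the cyclic AMP response element and the TATA box. The CCAAT box was searched as the letters of its name. The ETS motif was searched as CCGGAAG, a form that many ETS family factors can bind. The E box was searched as CACGTG, the palindrome known from basic helix-loop-helix factors. The cyclic AMP response element was searched as TGACGTCA, the full site of CREB family factors. The TATA box was searched as TATAAA, and in the windows printed no match of 1 motif overlapped another.
Snrpa1: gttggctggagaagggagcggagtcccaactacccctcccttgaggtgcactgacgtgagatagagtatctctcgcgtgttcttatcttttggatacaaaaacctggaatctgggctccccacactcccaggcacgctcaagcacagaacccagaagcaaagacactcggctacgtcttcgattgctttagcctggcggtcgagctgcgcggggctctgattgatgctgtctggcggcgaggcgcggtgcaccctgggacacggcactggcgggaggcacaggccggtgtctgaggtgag
Snrpb: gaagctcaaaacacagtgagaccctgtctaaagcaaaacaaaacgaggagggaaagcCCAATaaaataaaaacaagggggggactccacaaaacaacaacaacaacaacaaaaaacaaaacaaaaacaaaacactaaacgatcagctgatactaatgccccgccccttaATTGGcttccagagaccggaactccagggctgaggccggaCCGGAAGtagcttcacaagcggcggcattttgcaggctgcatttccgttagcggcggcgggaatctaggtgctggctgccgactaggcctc
Hnrnph1: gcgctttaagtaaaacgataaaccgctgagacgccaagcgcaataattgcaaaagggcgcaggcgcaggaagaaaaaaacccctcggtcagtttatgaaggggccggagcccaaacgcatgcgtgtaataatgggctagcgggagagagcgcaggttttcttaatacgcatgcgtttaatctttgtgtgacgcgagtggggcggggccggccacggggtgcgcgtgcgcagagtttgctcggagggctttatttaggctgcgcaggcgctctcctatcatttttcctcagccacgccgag

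Snrpb held a CCAAT box on each strand (ATTGG is the box read on the opposite strand) and an ETS motif, and the windows of Snrpa1 and Hnrnph1 held none of the 5 motifs. A promoter of this length was found for 44 of the 48 tested members, and Hnrnpll was not among them. The ETS motif occurred in 13 of these 44 (29.5%) and in 9.22% of all 27457 promoters of this length. The CCAAT box occurred in 54.5% of the members' promoters against 37.7% of all, the E box in 9.09% against 6.65%, the response element in 2.27% against 1.91% and the TATA box in 9.09% against 14.3%. Among the 11 promoters of genes that fell in both treatments 3 held the ETS motif, and among the 22 of genes called in neither treatment 8 did. The median GC content was 60.2% in the members' windows and 52.3% in all. These matches describe the letters in the window and are not evidence of binding.

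Most splicing factor genes lay lower at 6 h than at 3 h, in both treatments. Each gene is represented by its brightest probe set. Changes are on the scale log2(quantile-normalised intensity + 16), and a gene is called where limma's adjusted p is under 0.05 over all 18625 probe sets kept. With the filter at the 40th percentile, 48 of the 50 genes (76 of 81 probe sets) could be tested. Srsf3 and Srsf7 could not, and with mean intensities between 16.1 and 26.7 in the 4 groups both were dim. In GW5074 cultures 20 of the 48 members were called between 6 h and 3 h, 1 higher and 19 lower, which is 41.7%, where the background over all 10260 genes was 27.6% called, 13.5% higher and 14.1% lower. In low-potassium cultures 17 were called, 3 higher and 14 lower, or 35.4%, where the background was 25.6% called, 11.5% higher and 14.1% lower. Counted by probe set, 22 of 76 were called with GW5074 (1 higher, 21 lower), beside 4664 of 18625 (2441 higher, 2223 lower). In low potassium 18 of 76 were called (4 higher, 14 lower), beside 4223 of 18625 (2169 higher, 2054 lower). The share called in either direction was thus closer to the background by probe set than by gene.

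The median log2 change of the 48 members was -0.25 with GW5074 and -0.21 in low potassium, beside -0.02 and -0.04 over all genes tested. The change was negative for 35 of 48 members with GW5074, where 51.7% of all genes were negative. In low potassium it was negative for 37 of 48, where 54.3% of all genes were. All 3 arrays at 6 h lay below all 3 at 3 h, after normalisation, for 20 members with GW5074 (41.7%, against 22.1% of all genes) and for 18 in low potassium (37.5%, against 23.2%). All 3 lay above for 5 members in each treatment, or 10.4%, against 21.4% of all genes with GW5074 and 19.1% in low potassium.

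The changes of both treatments come from different arrays, although arrays of a letter within a time varied together (correlations of their deviations 0.209 to 0.65). The same 12 members were called lower in both, which is 25% of the members, beside 10% of all genes. A single member, Hnrnph1, was called higher in both (2.08%, beside 8.29% of all genes), a call that ended in both treatments without quantile normalisation and without the mean-variance trend. No member was called in opposite directions, and 0 of all 10260 genes were. Of the 48 members 24 were called in neither treatment, beside 6690 of the 10260 genes. The sign was the same in 40 of 48 members and in 8427 of the 10260 genes, which are similar shares. In bulk RNA, fewer cells of a type and less RNA per cell cannot be told apart.

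**Figure D1:**
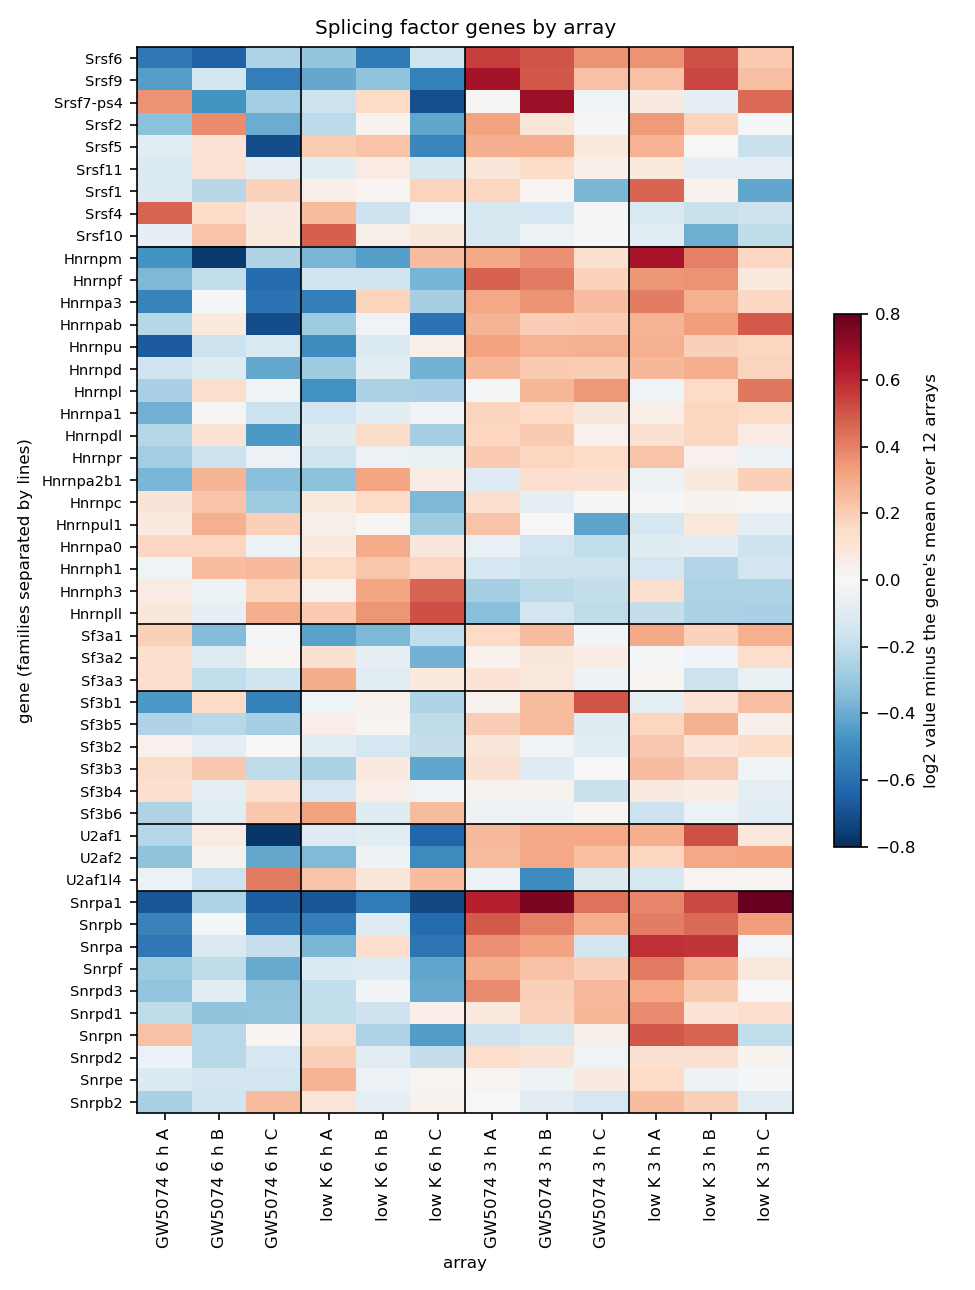
Log2 value of each of the 48 tested members (down the page, families separated by lines) on each of the 12 arrays (across, GW5074 left of low potassium at each time), minus that gene's mean over the arrays, with blue below and red above the mean. The colours stop at the ends of the scale. Most genes of the snRNP, U2AF and hnRNP families are red at 3 h and blue at 6 h, and the 6 h arrays of letter B are paler.

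The calls depended in part on single arrays. Of the 20 calls with GW5074, 7 held without any 1 of the 12 arrays (Hnrnpf, Snrpa1, Snrpb, Snrpd3, Snrpf, Srsf6 and Srsf9), all lower. Of the 17 in low potassium, 6 held (Hnrnpd, Snrpa1, Snrpb, Srsf6 and Srsf9 lower, Hnrnpll higher). Across 12 other settings of the analysis as well, 6 of the 20 held (Hnrnpf, Snrpa1, Snrpb, Snrpd3, Snrpf and Srsf9) and 5 of the 17 (Hnrnpd, Hnrnpll, Snrpa1, Snrpb and Srsf9). The count with GW5074 was 13 without GW5074 3 h array A, 10 without GW5074 3 h B, 11 without GW5074 6 h A and 13 without GW5074 6 h C. The count in low potassium was 11 without low-potassium 3 h array A, 8 without low-potassium 3 h B and 11 without low-potassium 6 h C. When both 6 h arrays of letter B were left out, a choice made after seeing the data, 23 members were called with GW5074 (1 higher, 22 lower, 18 of them shared with the 20). In low potassium that count was 21 (4 higher, 17 lower, 15 shared with the 17).

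The snRNP family held Snrpa1, the member with the largest log2 change in both treatments. Of 10 genes, 5 fell with GW5074 (Snrpa1, Snrpb, Snrpf, Snrpd3 and Snrpd1) and 4 in low potassium (the same without Snrpd1), and none rose. Among all genes 14.1% were called lower in each treatment. The family's median log2 change was -0.46 with GW5074 and -0.41 in low potassium.

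Snrpa1 encodes the A′ protein of the U2 snRNP, which binds the U2 snRNA together with the B″ protein. Its intensities with GW5074 were 185.0, 253.2 and 184.6 at 6 h, against 461.8, 497.1 and 400.0 at 3 h. In low potassium they were 183.2, 199.0 and 175.9 at 6 h, against 384.9, 425.5 and 540.4 at 3 h. Every 6 h array was lower than every 3 h array of the same treatment. The gene was 2.19-fold lower at 6 h with GW5074 (log2 change -1.13, SE 0.16, limma adjusted p = 0.000457). It was 2.36-fold lower in low potassium (log2 change -1.24, SE 0.16, limma adjusted p = 0.000416). Leaving out each array in turn moved the log2 change between -1.28 and -1.06 with GW5074 and between -1.33 and -1.11 in low potassium. The gene of the B″ protein, Snrpb2, was not called, with log2 changes of 0.02 with GW5074 and -0.10 in low potassium.

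Snrpb encodes SmB, a member of the Sm ring. It had 620.8, 876.1 and 608.3 at 6 h with GW5074, against 1324, 1240 and 1088 at 3 h. Low-potassium arrays of this gene had 599.6, 824.9 and 595.6 at 6 h, against 1226, 1271 and 1165 at 3 h. The groups did not overlap in either treatment, and in both the 6 h array of letter B was the nearest to the 3 h arrays. The log2 change was -0.77 (SE 0.16, limma adjusted p = 0.00418) with GW5074 and -0.82 (SE 0.16, limma adjusted p = 0.00345) in low potassium.

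Among the other Sm proteins, Snrpf averaged 593.6 ± 32.8 at 6 h and 870.3 ± 59.9 at 3 h with GW5074 (SD, n = 3), and its log2 change was -0.54 (limma adjusted p = 0.00775). In low potassium it averaged 631.1 ± 63.8 at 6 h and 889.6 ± 114 at 3 h, a log2 change of -0.47 (limma adjusted p = 0.0165). The low-potassium call of Snrpf ended without low-potassium 3 h A, 3 h B or 6 h C (adjusted p up to 0.0797). Snrpd3 changed by -0.52 with GW5074 (limma adjusted p = 0.00945) and by -0.38 in low potassium (limma adjusted p = 0.044). The low-potassium call of Snrpd3 ended without any 1 of 8 arrays, namely GW5074 3 h A, B and C, GW5074 6 h A, and low-potassium 3 h A and B and 6 h A and C (adjusted p up to 0.181). It also ended without the filter on dim probe sets (0.0633) and without the mean-variance trend (0.0804). Snrpd1 changed by -0.46 with GW5074 (limma adjusted p = 0.0164), a call that ended without GW5074 3 h B or C (up to 0.0574) and with the probe set of highest variance (0.142), and had -0.31 in low potassium (adjusted p = 0.0844).

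Snrpd2, the brightest snRNP gene, and Snrpe, which also code for Sm ring proteins, were not called. Their log2 changes were -0.21 and -0.15 with GW5074 and -0.12 and 0.05 in low potassium. Snrpa, which encodes the A protein of the U1 snRNP, had -0.47 with GW5074 (adjusted p = 0.146) and -0.65 in low potassium (limma adjusted p = 0.0515), with overlapping groups. Snrpn encodes SmN, the neuronal form of SmB. Its group means were between 62.4 and 88.4, and its log2 change was 0.09 with GW5074 and -0.44 in low potassium, neither called.

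**Figure D2:**
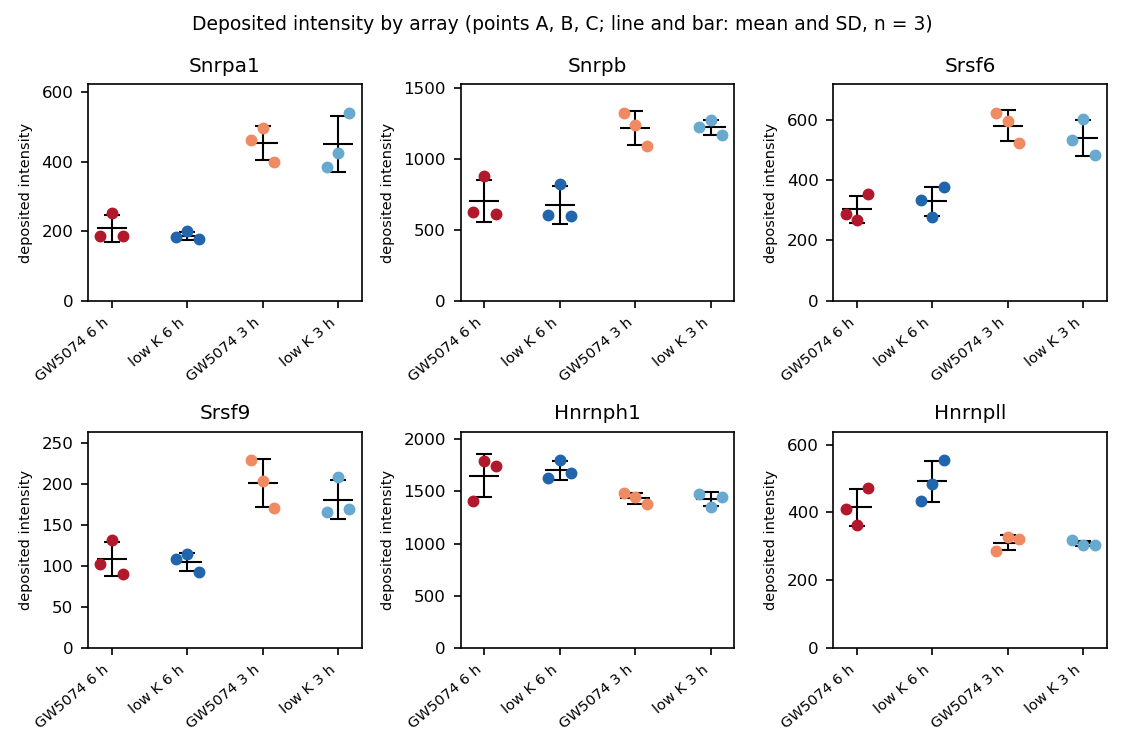
Deposited intensity of 6 members on each array (1 point per array, vertical axis from 0), with the mean and SD of each group of 3 as a line and bar. In Snrpa1, Snrpb, Srsf6 and Srsf9 all 6 h points lie below all 3 h points, whereas in Hnrnpll all 6 h points lie above them, and in Hnrnph1 1 GW5074 point at 6 h lies among those at 3 h.

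The genes of the proteins that recognise the 3′ splice site and the branch site changed in part. U2af2 encodes the large U2AF subunit, which contacts the polypyrimidine tract. It averaged 475.4 ± 75.0 at 6 h with GW5074 and 664.3 ± 26.7 at 3 h, and 449.8 ± 74.7 at 6 h in low potassium and 665.8 ± 35.0 at 3 h (SD, n = 3), with no overlap in either treatment. Its log2 change was -0.50 with GW5074 (limma adjusted p = 0.0216) and -0.57 in low potassium (limma adjusted p = 0.0133). The GW5074 call of U2af2 ended without GW5074 3 h A or B or 6 h A or C (up to 0.0884), and its low-potassium call ended without low-potassium 3 h B or 6 h C (up to 0.0657). With the mean of its 3 probe sets U2af2 was called in neither treatment (adjusted p = 0.0835 with GW5074 and 0.269 in low potassium), and with the probe set of highest variance its low-potassium call ended (0.286).

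U2af1, the small U2AF subunit that reads the AG at the intron's end, had a log2 change of -0.60 with GW5074 (limma adjusted p = 0.0409) and -0.57 in low potassium (adjusted p = 0.0548). All 3 of its 6 h arrays lay below the 3 h arrays in both treatments. The GW5074 call of U2af1 ended without any 1 of 6 arrays, GW5074 3 h A, B and C, GW5074 6 h A and C, and low-potassium 3 h A (up to 0.178), and also without the filter on dim probe sets (0.0598) or the mean-variance trend (0.0627). The related U2af1l4 had 0.29 with GW5074 and 0.22 in low potassium, neither called.

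Of the 3 SF3A genes, 1 was called in low potassium and none with GW5074, where 25.6% and 27.6% of all genes were called. Sf3a1 had 80.5, 83.7 and 92.2 at 6 h in low potassium, against 133.5, 122.4 and 131.2 at 3 h, with no overlap. Its log2 change there was -0.59 (SE 0.16, limma adjusted p = 0.0194), and the call ended without low-potassium 3 h A or 6 h A (up to 0.0688). The second Sf3a1 probe set, with group means of 91.3 to 123.0, had 0.22 with GW5074 and 0.12 in low potassium, and the call ended with the mean of both (-0.23, adjusted p = 0.223). With GW5074 the log2 change of Sf3a1 was -0.18 (adjusted p = 0.435). Sf3a2 and Sf3a3, the brightest of the family, were between -0.15 and 0.17 in both treatments.

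Of the 6 SF3B genes, 2 were called with GW5074, where 27.6% of all genes were. In low potassium limma called 0 of 6, beside 25.6% of all genes. Sf3b1, the largest subunit, which clamps the branch site duplex, had 1097, 1695 and 1060 at 6 h with GW5074, against 1708, 1959 and 2211 at 3 h. The 6 h array of letter B nearly reached the lowest 3 h array, and after normalisation the groups overlapped. The log2 change of Sf3b1 was -0.54 with GW5074 (SE 0.17, limma adjusted p = 0.0328) and -0.18 in low potassium (adjusted p = 0.49). Its GW5074 call ended without GW5074 3 h B or C or 6 h A or C (up to 0.136). It also ended without the filter on dim probe sets (0.0519), without the mean-variance trend (0.0623), with the probe set of highest variance (0.375) and with the mean of all probe sets (0.491). Sf3b5, a small subunit, changed by -0.36 with GW5074 (limma adjusted p = 0.0435). That call ended without GW5074 3 h A or B, low-potassium 3 h A or B, or any 1 of the 3 GW5074 6 h arrays (up to 0.173). It ended too without the filter (0.0578), without the trend (0.0752) and without both 6 h arrays of letter B (0.0518). Sf3b2, Sf3b3, Sf3b4 and Sf3b6 lay between -0.34 and 0.26 in both treatments and were not called.

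Of 9 tested genes with an SR symbol, among them the pseudogene Srsf7-ps4, 2 fell in both treatments, Srsf6 and Srsf9, and none rose. Among all genes 27.6% were called with GW5074 and 25.6% in low potassium, 14.1% lower in each. Srsf6 encodes SRp55, an SR protein that binds exonic enhancers. It had 287.8, 266.0 and 354.4 at 6 h with GW5074, against 624.0, 595.6 and 523.6 at 3 h. The low-potassium arrays had 333.6, 278.4 and 376.3 at 6 h, against 533.2, 601.5 and 483.3 at 3 h. No 6 h array reached a 3 h array. Srsf6 was 1.95-fold lower with GW5074 (log2 change -0.96, SE 0.15, limma adjusted p = 0.000801) and 1.63-fold lower in low potassium (log2 change -0.71, SE 0.15, limma adjusted p = 0.00509). With the mean of its 3 probe sets Srsf6 was called in neither treatment, at -0.47 with GW5074 (adjusted p = 0.107) and 0.02 in low potassium (0.948).

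Srsf9, which encodes the short SR protein SRp30c, had 102.7, 131.4 and 90.7 at 6 h with GW5074, against 229.2, 203.5 and 170.8 at 3 h. Its low-potassium intensities were 108.0, 114.4 and 93.0 at 6 h, against 165.4, 208.3 and 168.8 at 3 h. These groups did not overlap either. The log2 change of Srsf9 was -0.85 with GW5074 (SE 0.16, limma adjusted p = 0.00279) and -0.76 in low potassium (SE 0.16, limma adjusted p = 0.00584).

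The other SR genes were not called. Srsf2 (SC35) had log2 changes of -0.26 with GW5074 and -0.37 in low potassium. Srsf5 had -0.45 and -0.06, Srsf1 (SF2/ASF) 0.01 and 0.06, Srsf11 -0.12 and -0.03, and Srsf4 0.32 and 0.18 in the same order of treatments. Srsf10, a splicing repressor when dephosphorylated, had 0.14 with GW5074 and 0.43 in low potassium (limma adjusted p = 0.0504). The remaining SR symbol, Srsf7-ps4, is that of a pseudogene and lay near the filter, at group means of 23.7 to 38.5.

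Of 17 hnRNP genes, 8 fell and 1 rose with GW5074, and 6 fell and 3 rose in low potassium. Among all genes 14.1% were lower in each treatment, and 13.5% were higher with GW5074 and 11.5% in low potassium. The family's median log2 change was -0.33 with GW5074 and -0.19 in low potassium. Hnrnpf, whose protein binds G-rich runs, had 524.5, 575.3 and 438.8 at 6 h with GW5074, against 973.2, 905.0 and 737.0 at 3 h. The intensities in low potassium were 586.4, 589.6 and 529.0 at 6 h, against 872.0, 854.4 and 700.6 at 3 h. All 6 h arrays lay below the 3 h arrays of their treatment. The log2 change of Hnrnpf was -0.75 with GW5074 (SE 0.14, limma adjusted p = 0.00216) and -0.49 in low potassium (SE 0.14, limma adjusted p = 0.022). Its low-potassium call ended without low-potassium 3 h A or B or 6 h C (up to 0.0914).

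Hnrnpd encodes AUF1, which binds AU-rich elements in mRNAs. It averaged 817.0 ± 76.2 at 6 h and 1142 ± 62.0 at 3 h with GW5074, and 801.7 ± 75.2 at 6 h and 1155 ± 44.4 at 3 h in low potassium (SD, n = 3), with no overlap. Its log2 change was -0.45 with GW5074 (limma adjusted p = 0.0115) and -0.49 in low potassium (limma adjusted p = 0.00797). The GW5074 call of Hnrnpd ended without GW5074 6 h C (0.0526), and its low-potassium call held without any array.

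Hnrnpm had a log2 change of -0.76 with GW5074 (limma adjusted p = 0.0136) and -0.60 in low potassium (limma adjusted p = 0.0446). In low potassium its groups overlapped, and the call ended without any 1 of 7 arrays, GW5074 3 h A and B, GW5074 6 h A, and low-potassium 3 h A and B and 6 h A and B (up to 0.157). It also ended without quantile normalisation (0.0608), the filter (0.0655), the trend (0.0573) or both 6 h arrays of letter B (0.0894). With GW5074 the Hnrnpm call ended without GW5074 3 h B (0.056). Hnrnpab changed by -0.51 with GW5074 (limma adjusted p = 0.0448) and by -0.67 in low potassium (limma adjusted p = 0.0151). With GW5074 it held without 3 of the 12 arrays, GW5074 6 h B and low-potassium 6 h B and C, and was lost without any of the other 9 (up to 0.19), without the filter (0.0682) and without the trend (0.0772). In low potassium it was lost without low-potassium 3 h C or 6 h C (up to 0.0734).

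Hnrnpa3 changed by -0.68 with GW5074 (limma adjusted p = 0.0107), a call lost without GW5074 6 h A (0.0551) and with the mean of its probe sets (0.254). In low potassium it changed by -0.50 (limma adjusted p = 0.0478), with overlapping groups, and the call was lost without any 1 of 9 arrays, all but GW5074 6 h B and C and low-potassium 6 h B (up to 0.199). The low-potassium call of Hnrnpa3 was also lost with a pseudocount of 1 (0.0506), without the filter (0.0792), without the trend (0.0895) and with the mean of its probe sets (0.72). Hnrnpu, which encodes the nuclear scaffold protein SAF-A, changed by -0.62 with GW5074 (limma adjusted p = 0.0101) and had -0.41 in low potassium (adjusted p = 0.0659). The GW5074 call of Hnrnpu was lost without GW5074 6 h A (0.0521), with the probe set of highest variance (0.926) and with the mean of its probe sets (0.535). Hnrnpa1, a widely acting splicing repressor, changed by -0.33 with GW5074 (limma adjusted p = 0.0286) and had -0.21 in low potassium (adjusted p = 0.136). Its GW5074 call was lost without GW5074 3 h A or B or 6 h A or C (up to 0.143), without the trend (0.0845), with the probe set of highest variance (0.575) and with the mean of its probe sets (0.81). Hnrnpr changed by -0.34 with GW5074 (limma adjusted p = 0.0359), lost without any 1 of the 3 GW5074 3 h arrays or GW5074 6 h A or B (up to 0.138) or without the trend (0.0621), and had -0.16 in low potassium (adjusted p = 0.31).

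Hnrnpl, which binds CA-rich elements, had 1016, 1190 and 1209 at 6 h in low potassium, against 1490, 1695 and 2041 at 3 h, with no overlap. The log2 change of Hnrnpl there was -0.51 (SE 0.14, limma adjusted p = 0.0194), lost without low-potassium 3 h B or C or 6 h A (up to 0.0785). With GW5074 Hnrnpl had -0.25 (adjusted p = 0.214).

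Some hnRNP genes went the other way, with 1 called higher with GW5074 and 3 in low potassium. Hnrnpll, an hnRNP L relative known from alternative splicing in lymphocytes, had 411.0, 363.0 and 471.9 at 6 h with GW5074, against 285.0, 327.3 and 320.2 at 3 h. Low-potassium cultures had 434.9, 483.7 and 554.7 at 6 h, against 317.1, 302.6 and 304.6 at 3 h. All 6 h arrays were higher than the 3 h arrays in both treatments. The log2 change of Hnrnpll was 0.34 with GW5074 (SE 0.13, limma adjusted p = 0.078) and 0.59 in low potassium (SE 0.13, limma adjusted p = 0.00663), and its interaction was not called. Hnrnph1, a relative of Hnrnpf that binds G runs, had 1410, 1793 and 1747 at 6 h with GW5074, against 1483, 1445 and 1379 at 3 h, and 1629, 1801 and 1671 at 6 h in low potassium, against 1478, 1353 and 1450 at 3 h. The deposited intensity of GW5074 6 h A lay within the GW5074 3 h range, although the groups did not overlap after normalisation. Hnrnph1 rose by 0.32 with GW5074 (SE 0.10, limma adjusted p = 0.0253) and by 0.35 in low potassium (SE 0.10, limma adjusted p = 0.0173). Its GW5074 call was lost without any 1 of the 3 GW5074 3 h arrays or GW5074 6 h B or C (up to 0.0968), and its low-potassium call without low-potassium 3 h B (0.074). Without quantile normalisation Hnrnph1 was not called at 0.19 with GW5074 (adjusted p = 0.205) and 0.25 in low potassium (0.105), nor without the trend (0.0745 and 0.0552). Its GW5074 call also ended without both 6 h arrays of letter B (0.0595). Hnrnpa0, which binds AU-rich elements, rose by 0.27 in low potassium (limma adjusted p = 0.0399) and had 0.23 with GW5074 (adjusted p = 0.0665). The low-potassium call of Hnrnpa0 was lost without any 1 of 7 arrays, the 6 low-potassium arrays and GW5074 3 h B (up to 0.123). It was also lost without quantile normalisation (0.12, adjusted p = 0.401), the filter (0.0806), the trend (0.136) or both 6 h arrays of letter B (0.104).

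The remaining hnRNP genes were not called in either treatment. Hnrnpa2b1 had -0.19 with GW5074 and -0.06 in low potassium, Hnrnpc -0.01 and -0.05, Hnrnpdl -0.33 and -0.19, Hnrnph3 0.29 and 0.39, and Hnrnpul1 0.25 and -0.03.

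**Figure D3:**
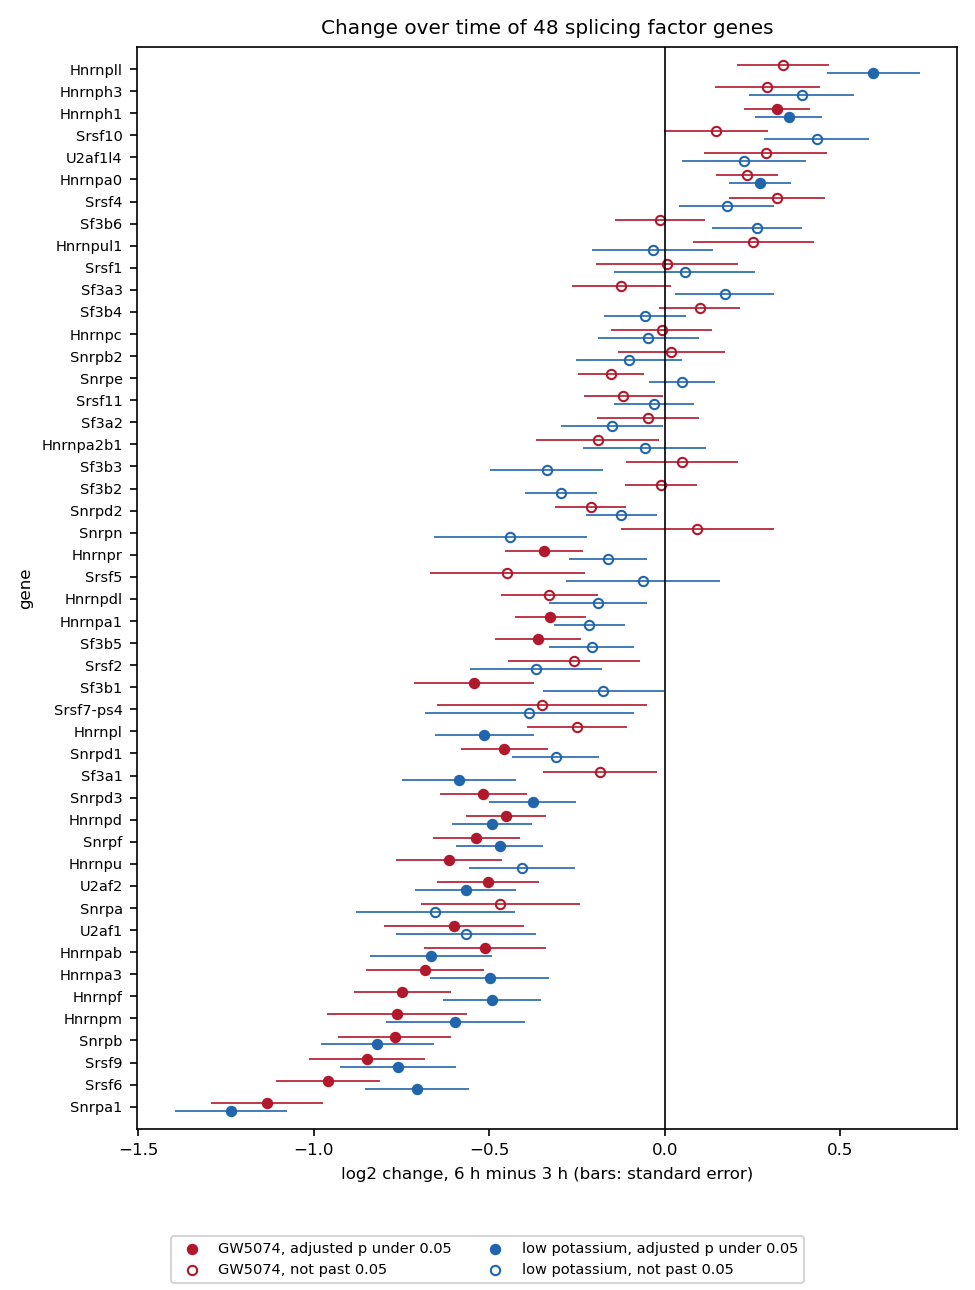
Log2 change, 6 h minus 3 h (horizontal axis, bars are standard errors) of the 48 tested members, with GW5074 in red above low potassium in blue. Filled points passed an adjusted p of 0.05, and 20 GW5074 points and 17 low-potassium points are filled, most of them left of 0.

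Probe sets of a gene did not always move together. Of the 16 members with more than 1 probe set past the filter, 12 with GW5074 and 10 in low potassium held probe sets of both signs. Within either treatment no member had probe sets called in opposite directions, but Sf3b1 had 1 called lower with GW5074 and another called higher in low potassium. The brightest Srsf6 probe set was lower at 6 h in both treatments, as above, while the other 2 had 0.07 and -0.51 with GW5074 and 0.36 and 0.41 in low potassium, none called. Sf3b1 had a less bright probe set, past the filter, that rose in low potassium by 1.20 (limma adjusted p = 0.0196), beside 0.43 with GW5074 (not called). Its low-potassium group means were 129.8 at 6 h and 47.2 at 3 h. The other bright Sf3b1 probe set had -0.49 and -0.24, near the -0.54 and -0.18 of the brightest.

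Hnrnpu had 2 further probe sets, at 0.04 and 0.06 with GW5074 and at -0.01 and 0.71 in low potassium. Those of Hnrnpa1 had 0.03 and 0.18 with GW5074 and 0.19 and 0.52 in low potassium. In Hnrnpa3 the other 4 probe sets lay between -0.28 and 0.03 with GW5074 and between -0.18 and 0.22 in low potassium, and none was called. Conversely, Srsf2 and U2af2 each had a second probe set called lower with GW5074, at -0.80 for both (limma adjusted p = 0.0407 for Srsf2 and 0.0281 for U2af2), while the remaining U2af2 probe set had 0.21 with GW5074 and 0.24 in low potassium, not called. Where the probe sets lie in the transcripts was not used here, so transcript forms were not told apart. The plot of all probe sets by gene shows these values, and a gene's change above is that of its brightest probe set.

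**Figure D4:**
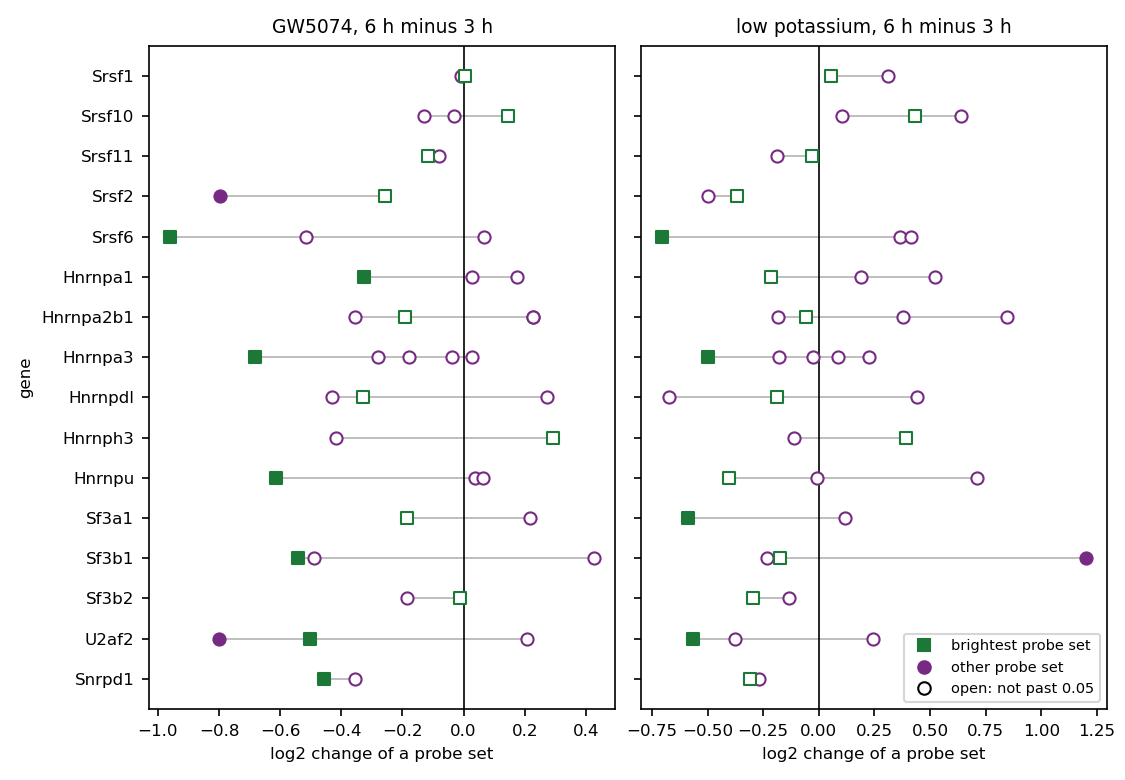
Log2 change (6 h minus 3 h) of each probe set of the 16 members with more than 1 past the filter, with GW5074 on the left and low potassium on the right. Squares are the brightest probe sets, circles the others, and filled symbols passed an adjusted p of 0.05. In Srsf6, Hnrnpu and Hnrnpa3 the brightest probe set lies left of the others of the same gene in both panels. That of Sf3b1 does so with GW5074, whereas in low potassium another probe set lies further left.

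GW5074 and low potassium were next compared at each time. At 3 h no splicing factor was called. limma called 0 of 48 members, where 0% of all genes were called. An unadjusted p under 0.05 was found for 0 members, beside 1.28% of all genes. In the fit with the replicate block (the arrays of a letter within a time taken as pairs) 0 members were again called, where the background was 0.00975%. In that fit 1 member (2.08%) had an unadjusted p under 0.05, beside 5.78% of all genes. The 48 log2 differences of the brightest probe sets lay between -0.34 and 0.19, and 24 were positive and 24 negative. Other probe sets went beyond this range, up to 0.61 in Hnrnpa2b1 and 0.50 in Srsf6, and none was called. Of the 16 members with more than 1 probe set past the filter, 11 held both signs at 3 h. Members with the smallest p were Snrpn (-0.34), Sf3b2 (-0.16), Snrpb2 (-0.19), U2af1l4 (-0.18) and Srsf10 (0.16), all with a limma adjusted p of 1. The 3 GW5074 arrays of Snrpn had 58.4, 63.3 and 77.5, against 104.0, 102.1 and 59.2 in low potassium, so the groups overlapped. The difference of Snrpn was -0.56 without low-potassium 3 h C and -0.21 without low-potassium 3 h A.

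At 6 h the fit without pairs called 0 of 48 members, where 0% of all genes were called. It gave 1 member (2.08%) an unadjusted p under 0.05, beside 4.74% of all genes. Its lowest adjusted p among members was 0.983. The paired fit called 1 member, Hnrnpl, higher with GW5074, or 2.08% of the members, where the background was 1.95% (1.1% higher), and 12 members (25%) had an unadjusted p under 0.05, beside 16.7% of all genes. Hnrnpl had 1174, 1586 and 1372 with GW5074, against 1016, 1190 and 1209 in low potassium. The GW5074 array was the higher in each of the 3 pairs, but the groups overlapped. The log2 difference was 0.28 (SE 0.068 with pairs, limma adjusted p = 0.0461 with pairs and 0.983 without). With the pairs as a random block, at an estimated correlation, Hnrnpl was not called (adjusted p = 0.17) and 0 of 48 members were.

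The Hnrnpl call ended without any 1 of the 6 pairs. The adjusted p was 0.0694, 0.0757 and 0.0652 without the 3 h pairs A, B and C, and 0.128, 0.216 and 0.0852 without the 6 h pairs A, B and C. By brightest probe set the members' differences at 6 h ran between -0.31 (Hnrnpm) and 0.28, with 19 positive and 29 negative. Their median was -0.06, beside 0.02 over all genes. Other probe sets ran from -0.54 in Sf3b1 to 0.36 in Srsf11, and none of them was called. Both signs were held at 6 h by 5 of the 16 members with more than 1 probe set past the filter. After normalisation all 3 GW5074 arrays lay above the low-potassium arrays for 2 members (Hnrnpul1 and Sf3b2) and below for 3 (Sf3b5, Snrpd1 and Snrpe), or 4.17% and 6.25%, against 5.28% and 3.99% of all genes. These 5 were singled out after their values were seen.

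**Figure D5:**
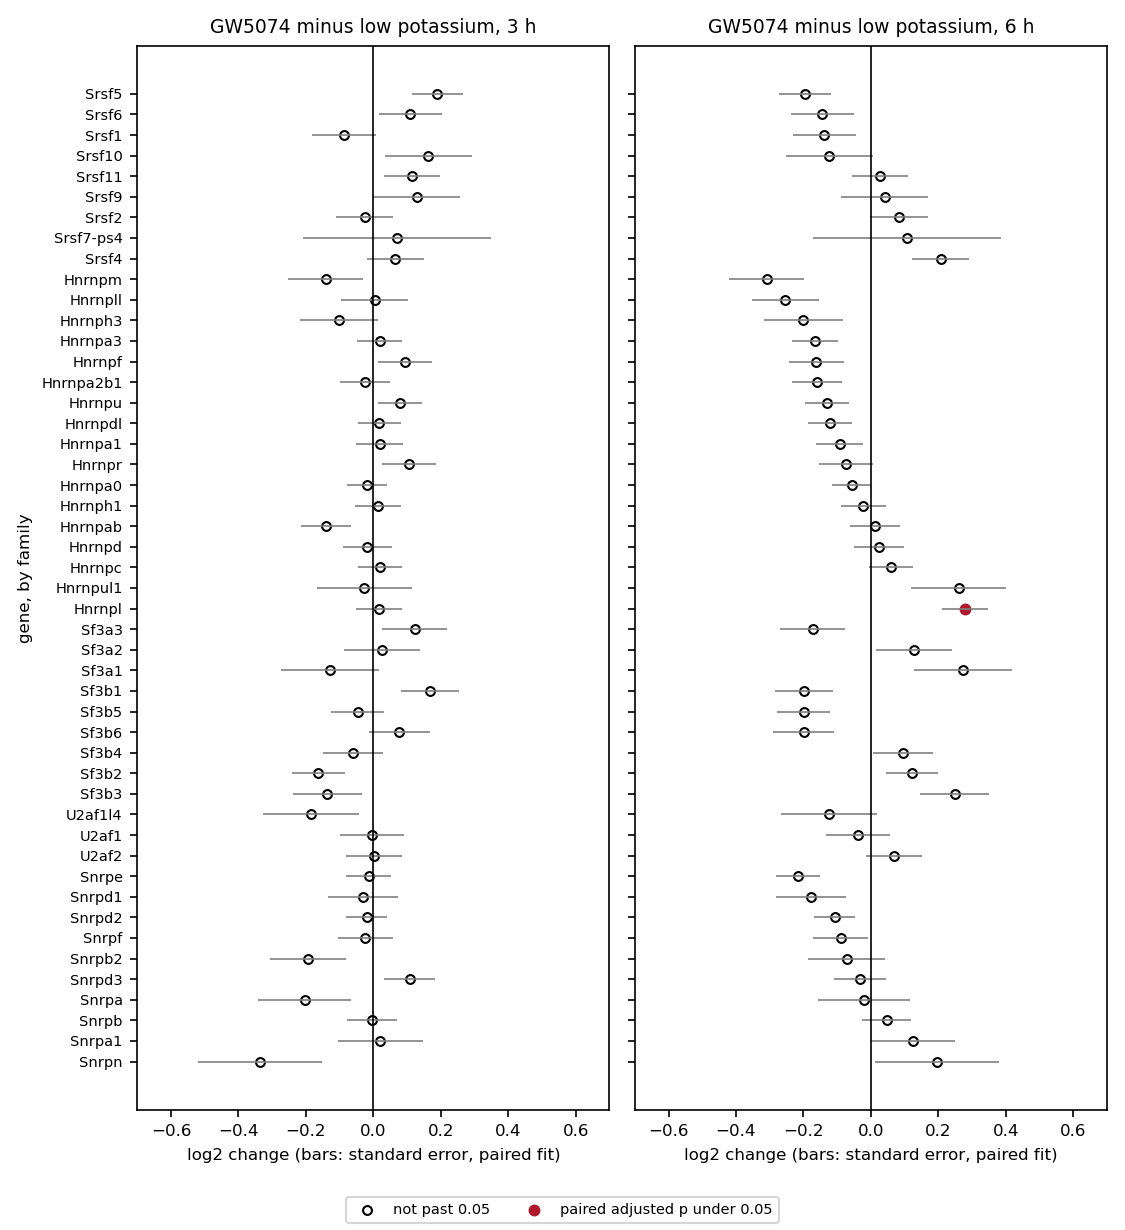
Log2 difference of GW5074 minus low potassium (horizontal axis, bars are standard errors of the paired fit) for the 48 tested members by family, at 3 h on the left and at 6 h on the right. The points lie between -0.34 and 0.19 at 3 h and between -0.31 and 0.28 at 6 h, and Hnrnpl at 6 h is the single filled point.

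Among widely studied members at 6 h, Srsf1 had a log2 difference of -0.14, Srsf5 of -0.20, Srsf6 of -0.14, Hnrnpa1 of -0.09, Hnrnpa2b1 of -0.16, Hnrnpu of -0.13, U2af2 of 0.07 and Snrpb of 0.05, none called with or without pairs. Sf3b1 had -0.20 (paired adjusted p = 0.261). When the 6 h pair B was left out, Sf3b1 was called lower by the paired fit, at -0.36 (limma adjusted p = 0.0389), and lay between -0.20 and -0.09 without each other pair. Whether the change over time differed between the treatments was tested by the interaction, the GW5074 difference at 6 h minus that at 3 h. limma called 0 of 48 members without pairs, where 0% of all genes were called. It gave 0 members an unadjusted p under 0.05, beside 3.05% of all genes. It called 0 with pairs, where the background was 0.185% (0.117% higher and 0.0682% lower). In that fit 10 members (20.8%) had an unadjusted p under 0.05, beside 13.1% of all genes. Among the brightest probe sets its lowest adjusted p was 0.137. Another Srsf6 probe set came nearer to the threshold, with a log2 interaction of -0.93 (limma adjusted p = 0.0551 with pairs). The brightest Srsf6 probe set had -0.25 (0.424 with pairs).

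The smallest interaction p-values without pairs belonged to Snrpn (0.53), Sf3a1 (0.40), Sf3b3 (0.39), Sf3b2 (0.28) and Snrpe (-0.20), with log2 interactions in brackets and a limma adjusted p of 1 for each. Without the 6 h pair B the paired fit called Sf3b1 (-0.53, limma adjusted p = 0.0291), beside -0.37 (0.2) with all pairs. A p that misses the threshold does not show that the treatments act alike.

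Other genes of the splicing pathway, listed by function, included genes called in each direction over time. Of 25 tested SR protein kinases and cofactors, 4 rose and none fell with GW5074, and 7 rose and 1 fell in low potassium. That is 16% called with GW5074, beside 27.6% of all genes, and 32% in low potassium, beside 25.6%. Called higher were 16% with GW5074, near the 13.5% of all genes, and 28% in low potassium, beside 11.5%. They included Clk1, a kinase of SR proteins (0.85 in low potassium, limma adjusted p = 0.00273), and Rsrc2 (0.56 with GW5074, limma adjusted p = 0.00645, and 0.83 in low potassium, limma adjusted p = 0.000928). Tra2b, an SR-like activator, rose by 0.35 with GW5074 (limma adjusted p = 0.043) and by 0.48 in low potassium (limma adjusted p = 0.0115). The median of this list was 0.14 with GW5074 and 0.37 in low potassium, beside -0.02 and -0.04 over all genes.

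Of 63 tested genes of other snRNP and spliceosome proteins, 2 rose and 9 fell with GW5074, and 6 rose and 7 fell in low potassium, or 17.5% and 20.6% called, both below the 27.6% and 25.6% of all genes. Phf5a, a small partner of SF3B1, fell by 0.67 with GW5074 (limma adjusted p = 0.00169) and by 0.52 in low potassium (limma adjusted p = 0.00805). With GW5074 Snrnp70, a U1 snRNP protein, fell by 0.93 (limma adjusted p = 0.00239) and Lsm7, a ring protein of the U6 snRNP, by 0.99 (limma adjusted p = 0.00108). Plrg1 rose by 0.63 with GW5074 and 0.64 in low potassium. Of 41 tested neuronal and other splicing regulators, 7 rose and 8 fell with GW5074, and 7 rose and 10 fell in low potassium. These calls made up 36.6% and 41.5% of the list, both above the 27.6% and 25.6% of all genes. Rbfox3, which encodes the neuronal antigen NeuN, rose by 1.67 with GW5074 and 1.44 in low potassium (limma adjusted p = 2.71e-05 and 7.49e-05, in that order). Tial1 fell by 1.38 and 1.25 in the same order. None of these lists had a gene called between GW5074 and low potassium at either time, with or without pairs.

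Cell type markers changed over the same hours. Of 19 granule neuron markers, 16 rose and none fell with GW5074 (84.2% called, beside 27.6% of all genes). In low potassium 9 of these markers rose and 2 fell (57.9% called, beside 25.6% of all genes). Their summed intensity per array was 25100 to 31320 with GW5074 at 6 h and 24460 to 28720 in low potassium at 6 h, and 16910 to 20500 with GW5074 at 3 h and 17460 to 22510 in low potassium at 3 h. Of 10 astrocyte markers 2 rose and 1 fell in each treatment, or 30% called, near the shares of all genes. Their sums were 4827 to 5209, 4467 to 6844, 3258 to 3663 and 3249 to 4018 in the same order of groups. Of 7 oligodendrocyte markers 1 fell in each treatment, with sums of 1849 to 2780, 2300 to 2518, 2655 to 3373 and 3128 to 3963. None of the 7 microglial markers and none of the 4 endothelial and fibroblast markers was called by limma, and their sums reached at most 851.7 and 369.2. At 6 h the paired fit called 2 granule neuron markers higher and 1 astrocyte marker lower with GW5074 than in low potassium. That fit called 1.95% of all genes. The part of these shifts, and of the lower position of the 6 h arrays of letter B, in the splicing factor values was not tested.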

How the data were processed

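The series holds 12 arrays of rat cerebellar granule neuron cultures, 3 in each of 4 groups taken from the sample labels. For each probe set the authors deposited 1 linear intensity per array. Judged by the values, arrays had been scaled to a common mean of 150 after trimming 2% at each end, by software not named in the labels or headers read here. The 57 control probe sets were left out, and gene symbols came from the platform's gene table. Values were quantile-normalised, 16 was added and log2 was taken. Probe sets with a mean at or above the 40th percentile (an intensity of 28) were tested with limma 3.58.1 in R 4.3.3 (lmFit, eBayes with trend, two-sided, 4 group means, 8 residual degrees of freedom), with Benjamini-Hochberg adjustment at 0.05 over 18625 probe sets. A gene is its probe set with the highest mean. Of the probe sets with several symbols 8 carry a member prefix, Hnrnpk among them, and are not members.

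The letters share numbers across groups. Within a time, same-letter arrays deviated from their group means together in all 6 pairs (correlations 0.426, 0.209 and 0.543 at 3 h, and 0.293, 0.65 and 0.571 at 6 h), and across times they did not (-0.0668 to 0.182). A paired fit with the letter within time as a block (4 residual degrees of freedom) is therefore given beside the GW5074 comparisons. The members and lists were chosen with earlier results of these data known. The genes named are up to 8 rises and 8 falls past the threshold per comparison or else the 5 smallest p, with preset genes, and all other called members were added after their values were seen. The script was tested on simulated data. Promoters are RefSeq sequences. Python 3.11.15 and matplotlib 3.10.9 made the figures.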

Additional observations from a re-analysis of the deposited data

How the results depend on the processing

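The count of members called over time stayed between 12 and 23 in low potassium and between 13 and 30 with GW5074 in fits of all 12 arrays, with 13 for GW5074 without the mean-variance trend (10 to 21 over single arrays left out) and 30 with array weights, which is 1.5 times the 20. Single arrays left out gave 8 to 20 in low potassium. For GW5074 against low potassium at 6 h the replicate block within time gave 1 call (Hnrnpl) against 0, and leaving out 1 array or pair gave 0 to 1, as it did for the interaction. At 3 h every setting gave 0. The replicate block by letter over both times, which the arrays do not bear out, gave 23 with GW5074 and 22 in low potassium, and a random replicate block within time gave 20 and 20, and 0 for GW5074 against low potassium at each time and for the interaction. In the comparisons of GW5074 with low potassium the paired fit changed no other member's call. The choice of probe set turned some signs. With the probe set of highest variance Sf3b1 had a log2 change of 0.43 with GW5074 and 1.20 in low potassium, Hnrnpu of 0.062 and Hnrnpa1 of 0.18 with GW5074. With the mean of all probe sets Srsf6 had 0.023 in low potassium. Without quantile normalisation the members' medians were -0.35 with GW5074 and -0.29 in low potassium, beside -0.01 and -0.03 over all genes. They were smaller, at -0.17 and -0.13, with the mean of all probe sets, beside -0.02 and -0.04 over all genes. With the probe set of highest variance they were -0.19 and -0.18 in the same order, beside -0.03 and -0.04. In the main fit they were -0.25 and -0.21. The cause of these differences was not tested. Dim probe sets lie near the background, so Srsf3, Srsf7 and Srsf7-ps4 bear no statement.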

Other observations

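Genes of the exon junction complex and mRNA export, which act on the spliced mRNA, were also measured. Of 21 tested, none rose and 3 fell with GW5074, and 1 rose and 1 fell in low potassium. That is 14.3% called with GW5074, beside 27.6% of all genes (14.1% lower), and 9.52% in low potassium, beside 25.6%. Alyref, an export adaptor, fell by 1.02 with GW5074 (limma adjusted p = 2e-04) and by 0.93 in low potassium (limma adjusted p = 0.000433). Rbm8a, the Y14 subunit of the exon junction complex, fell by 0.39 with GW5074 (limma adjusted p = 0.0115), and Thoc6, a subunit of the THO complex, by 0.89 with GW5074 (limma adjusted p = 0.0116). Upf2, a factor of nonsense-mediated decay, rose by 0.86 in low potassium (limma adjusted p = 0.0141). The median log2 change of the list was -0.23 with GW5074 and -0.07 in low potassium.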
